A study of Gallus gallus with 6 samples.

Results

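NDRG1, PLOD1 and FAM162A belong to the genes that textbooks have switched on by hypoxia-inducible factor (HIF). In chick lens fiber cells their transcripts were lower, not higher, after 8 h in 1% O2. These 3 genes were picked by symbol from the 9107 gene rows of the deposited RNA-seq table, because their values were lower in the comparison of 8 h with 0 h. That comparison is therefore described here without a test of the members, and their direction supports nothing further. The tested samples were 3 pools of White Leghorn chick lenses of embryonic day 13, cultured whole for 8 h in 1% O2, and the samples they were set against were 3 pools of untreated lenses of the same age taken at 0 h. No genetic change or drug is named for either group. Each pool held 10 to 15 lenses, fiber cells were dissected away from the epithelium before RNA isolation, and the 3 pools of each group are described by the submitters as biological triplicates. A control cultured for 8 h at normal oxygen was not analysed here, so oxygen and time in culture cannot be told apart.

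HIF is a transcription factor made of an oxygen-regulated alpha subunit and the stable partner ARNT. In normal oxygen, prolyl hydroxylases of the EGLN family mark the alpha subunit for destruction through VHL. In low oxygen it accumulates and switches on genes for glycolysis, blood vessel growth, collagen cross-linking and mitochondrial control. The mature lens has no blood supply, and its fiber cells live in low oxygen. In mammalian cells NDRG1 (N-myc downstream regulated 1) encodes a cytoplasmic protein induced by hypoxia, repressed by MYC proteins and phosphorylated by the kinase SGK1. PLOD1 encodes lysyl hydroxylase 1, an enzyme of the endoplasmic reticulum that hydroxylates lysines of collagen so that chains can be glycosylated and cross-linked. FAM162A encodes a mitochondrial protein, first described in mammals as a HIF-1-responsive promoter of cell death.

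The libraries held between 23.5 M and 32.6 M reads on the genes of the table. In order of pool these were 30.55 M, 32.62 M and 29.43 M at 8 h and 24.73 M, 29.11 M and 23.53 M in untreated pools. Each hypoxic library thus had more reads than each untreated one. ASL1, which encodes delta-crystallin, took 48.2% to 53.1% of each library. Of 22 lens fiber markers, 21 had a row, and their summed level was 15248993 to 16448467 normalized counts at 8 h and 18357116 to 20528521 in untreated pools. Most of that sum was ASL1, which did not pass (-0.28 ± 0.12, limma, adjusted p = 0.0632). Of these 21 markers, 15 (71.4%) fell and 2 (9.52%) rose (limma, adjusted p under 0.05), where 25.7% of all rows were called lower, 29.4% higher and 55.1% in either direction. Their median log2 difference was -0.50. The crystallin gene CRYBA4 (-0.80 ± 0.10), GRIFIN (-0.75 ± 0.11), LGSN (-0.72 ± 0.12) and the beaded filament gene BFSP1 (-0.62 ± 0.12) were in or near the range of the members described below. The 2 markers that rose were MAF (0.80 ± 0.10, limma, adjusted p = 5.91e-05) and PROX1 (0.65 ± 0.16, adjusted p = 0.00756). With library totals, where 10.7% of all rows were called lower, 7 markers fell and 2 rose, and the median was -0.28. Lens epithelium markers had 5 of 11 rows, with sums of 9345 to 11528 at 8 h and 9789 to 13490 in untreated pools, and within them PAX6 rose by 0.70 ± 0.10 on the log2 scale while PDGFRA fell by 1.57 ± 0.15 and NPNT fell by 0.45 ± 0.11. Erythroid markers had 2 of 13 rows, with sums of 198 to 409 at 8 h and 275 to 368 in untreated pools. Endothelial and mesenchymal markers had 3 of 13 rows, with 293 to 383 at 8 h and 347 to 474 in untreated pools, and of these PECAM1 fell by 2.10 ± 0.33 on the log2 scale and COL3A1 rose by 1.13 ± 0.19. The 1 of 9 macrophage markers with a row, CD74, had 63 to 100 at 8 h and 81 to 154 in untreated pools. Retina and pigment markers had 4 of 12 rows, with 499 to 718 at 8 h and 485 to 821 in untreated pools. Of these MITF rose by 1.25 ± 0.16 on the log2 scale and OPTC fell by 1.77 ± 0.21. PMEL was called higher (2.43 ± 0.79, limma, adjusted p = 0.0379), but its groups overlapped. It stood at 179, 39 and 229 at 8 h and 45, 18 and 11 in untreated pools. In bulk RNA, fewer cells of a type and less RNA per cell cannot be told apart. The part of these markers in the results below was not tested.

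NDRG1 had the most reads of the 3 genes. Normalized counts, which are reads divided by a size factor per library, were 5195, 5487 and 6515 at 8 h, against 8539, 11481 and 9728 in untreated pools. Each hypoxic pool lay below each untreated pool, and the highest hypoxic value, that of pool 3, was 76.3% of the lowest untreated value, that of pool 1. The mean was 5732.0 ± 693 at 8 h and 9916 ± 1480.0 in untreated pools (SD, n = 3 each), or 42.2% lower. The log2 difference was -0.79 ± 0.13 (SE, 95% interval -1.06 to -0.51). Of the 9105 rows fitted, 606 (6.66%) had a log2 difference as low or lower.

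PLOD1 stood at 777, 609 and 576 normalized counts at 8 h, against 1130, 1078 and 982 in untreated pools. The groups again did not overlap, but here hypoxic pool 1 was the highest of its group, at 79.1% of the lowest untreated pool. The mean was 654.0 ± 108 at 8 h and 1063 ± 75.1 in untreated pools, or 38.5% lower. The log2 difference was -0.71 ± 0.12 (95% interval -0.97 to -0.45), and 749 rows (8.23%) were as low or lower.

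FAM162A stood at 3269, 3376 and 4156 normalized counts at 8 h, against 5173, 5697 and 6125 in untreated pools. The groups were apart, with the highest hypoxic pool, number 3, at 80.3% of the lowest untreated one. The mean was 3600.3 ± 484 at 8 h and 5665 ± 477.0 in untreated pools, or 36.4% lower. The log2 difference was -0.66 ± 0.11 (95% interval -0.90 to -0.41), and 880 rows (9.67%) were as low or lower. In the authors' deposited table the shrunken log2 fold changes of 8 h over 0 h were -0.77 for NDRG1, -0.68 for PLOD1 and -0.64 for FAM162A.

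Across all rows fitted, 30.1% had hypoxic pools that all lay below the untreated ones and 32.6% had hypoxic pools that all lay above. The lack of overlap in the 3 members is read against that background, and it was fixed by the way they were chosen. Counting error was below the spread between pools, least so for PLOD1. The members rested on 6028 to 10758 reads per library for NDRG1, 630 to 1010 for PLOD1 and 3793 to 5338 for FAM162A, and the largest counting error was 1.29%, 3.98% and 1.62% in that order. The coefficient of variation between pools was 12.1% at 8 h and 14.9% in untreated pools for NDRG1. It was 16.5% at 8 h and 7.06% in untreated pools for PLOD1, and 13.4% at 8 h and 8.42% in untreated pools for FAM162A.

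**Figure D1:**
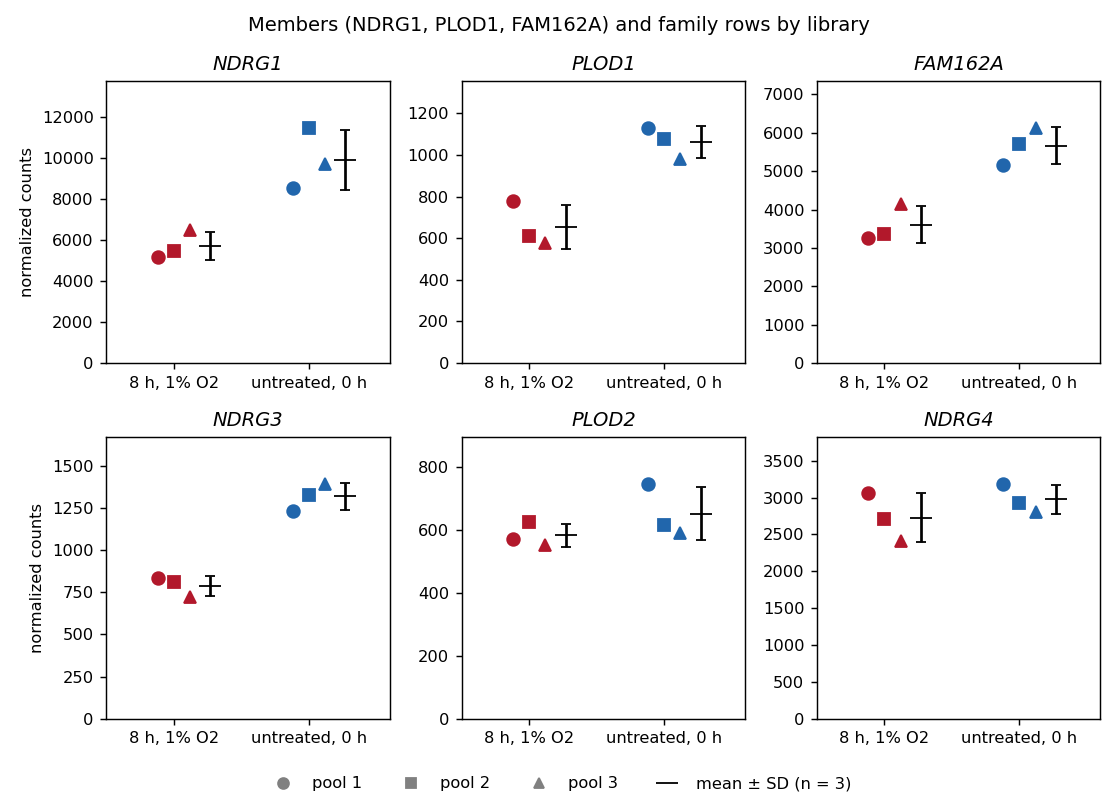
Normalized counts (vertical axes, from 0) in the 3 pools at 8 h in 1% O2 (red) and the 3 untreated pools at 0 h (blue), for the members in the upper row and NDRG3, PLOD2 and NDRG4 in the lower row. Symbols mark the pool number and black bars the mean ± SD. NDRG1, PLOD1, FAM162A and NDRG3 show no overlap between groups, while PLOD2 and NDRG4 overlap.

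PLOD1 ran in another order over the hypoxic pools than NDRG1 and FAM162A. Taken as log2 deviations from the group mean, hypoxic pools 1, 2 and 3 stood at -0.14, -0.06 and 0.19 for NDRG1 and at -0.13, -0.08 and 0.22 for FAM162A. For PLOD1 they stood at 0.26, -0.09 and -0.17, so the pool that was highest for PLOD1 was the lowest for NDRG1 and FAM162A. The abundant lens gene CRYAA, given here after its values were seen, deviated by 0.27, 0.00 and -0.27 in the same pools. In the untreated pools the deviations were -0.21, 0.22 and -0.02 for NDRG1, 0.09, 0.02 and -0.11 for PLOD1, and -0.13, 0.01 and 0.12 for FAM162A.

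The ratio of NDRG1 to FAM162A counts was 1.59, 1.63 and 1.57 at 8 h and 1.65, 2.02 and 1.59 in untreated pools. That of NDRG1 to PLOD1 was 6.69, 9.01 and 11.3 at 8 h and 7.56, 10.7 and 9.91 in untreated pools, and that of PLOD1 to FAM162A was 0.238, 0.180 and 0.139 at 8 h and 0.218, 0.189 and 0.160 in untreated pools. All 3 ratios overlapped between the groups. Whether the 3 genes differed in the size of their difference was not tested.

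The scaling of the libraries sets the size of each difference. With libraries scaled by their totals, where the median of all rows moved by 0.216 on the log2 scale, the log2 difference was -0.57 for NDRG1, -0.49 for PLOD1 and -0.44 for FAM162A. With totals that leave out the crystallins it was -0.70, -0.62 and -0.57 in the same order. The trimmed mean of M-values gave -0.79, -0.71 and -0.66, as with the deposited scaling. In RPM (reads scaled to the library total), NDRG1 ranged from 197 to 242 at 8 h and from 293 to 369.6 in untreated pools. FAM162A ranged from 124 to 154 at 8 h and from 178 to 194 in untreated pools. PLOD1 ranged from 21.4 to 29.5 at 8 h and from 31.1 to 38.8 in untreated pools, which left a narrow gap. The groups of all 3 members stayed apart on this scale too. Leaving out 1 library at a time gave -0.89 to -0.68 for NDRG1, -0.84 to -0.63 for PLOD1 and -0.77 to -0.59 for FAM162A.

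**Figure D2:**
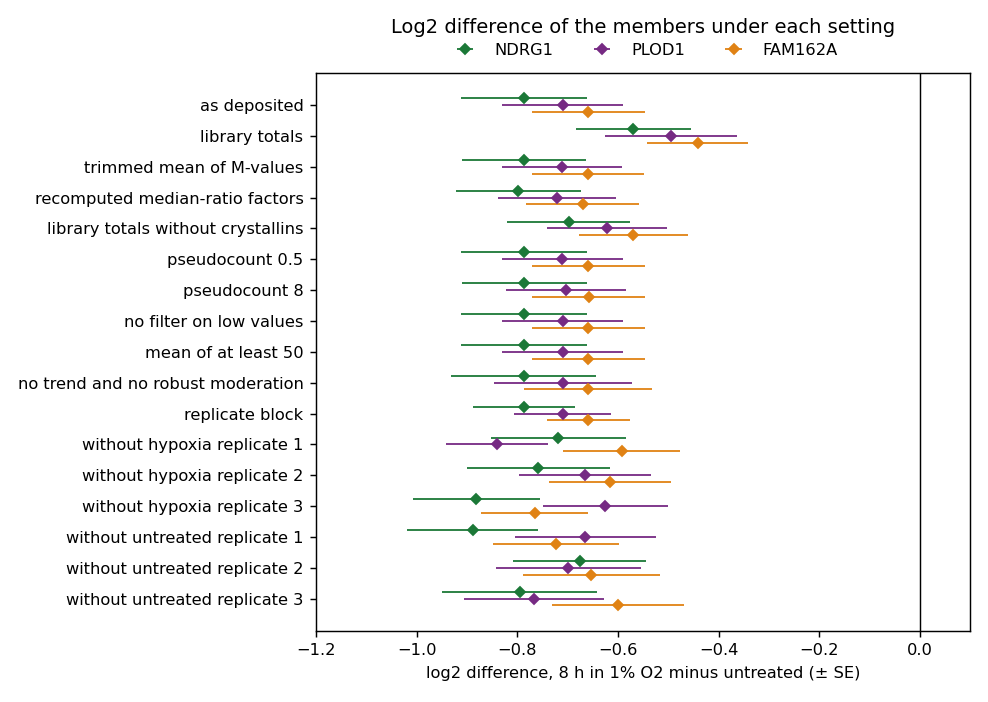
Log2 difference (horizontal axis, 8 h in 1% O2 minus untreated, bars are ± SE) of NDRG1, PLOD1 and FAM162A as deposited and under each other scaling, pseudocount, filter, model and left-out library. The points stay between -0.89 and -0.44, and library totals give the values nearest to 0 for all 3 genes.

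The family rows differed from one another. NDRG3, a paralogue of NDRG1, fell to 834, 809 and 723 at 8 h, against 1231, 1331 and 1396 in untreated pools, with a log2 difference of -0.74 ± 0.09 (limma, adjusted p = 6.68e-05). The ratio of NDRG1 to NDRG3 overlapped between groups, at 6.23, 6.78 and 9.01 at 8 h and 6.94, 8.63 and 6.97 in untreated pools. NDRG4, best known from heart and brain, stood at 3065, 2709 and 2408 at 8 h and 3190, 2932 and 2805 in untreated pools. Its log2 difference of -0.13 ± 0.10 did not pass (limma, adjusted p = 0.308), and with library totals it was 0.086. The ratio of NDRG1 to NDRG4 was 1.69, 2.03 and 2.71 at 8 h and 2.68, 3.92 and 3.47 in untreated pools, with a small overlap.

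PLOD2, the lysyl hydroxylase of collagen telopeptides and itself a textbook HIF target, stood at 570, 624 and 553 at 8 h and 747, 616 and 591 in untreated pools. Its log2 difference of -0.16 ± 0.11 did not pass (limma, adjusted p = 0.253), and with library totals it was 0.061. The ratio of PLOD1 to PLOD2 was 1.36, 0.976 and 1.04 at 8 h, against 1.51, 1.75 and 1.66 in untreated pools, without overlap. Because PLOD1 was chosen on this contrast, that ratio is given as a description. NDRG2, PLOD3 and FAM162B are not analysed here.

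The members were chosen as lower, so their side among textbook HIF targets is no finding. The list of targets was chosen with earlier results of these data known. Of 59 other targets with a row, 38 rose, 7 fell and 14 did not pass (limma, adjusted p under 0.05). That is 64.4% higher and 11.9% lower, where 29.4% of all rows were called higher and 25.7% lower. The median log2 difference of the list was 0.61, beside -0.01 over all rows. With library totals 39 rose and 1 fell, where 40.1% of all rows were called higher and 10.7% lower, and the median was 0.82. In the order of all 62 targets from the lowest, NDRG1 was at place 3, PLOD1 at 5 and FAM162A at 6. Low places for these genes follow from how they were chosen.

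RORA, a nuclear receptor of the circadian clock, and CCNG2, an atypical cyclin of quiescent cells, had lower values than the members. RORA stood at 18, 47 and 40 at 8 h and 65, 83 and 67 in untreated pools (-1.11 ± 0.34, limma, adjusted p = 0.0168), but it lost its call without untreated pool 2 (adjusted p = 0.0623) and with library totals (adjusted p = 0.0525). CCNG2 fell to 466, 354 and 428 at 8 h, against 837, 793 and 820 in untreated pools (-0.98 ± 0.11, limma, adjusted p = 3.03e-05), and was the list member still lower with library totals (-0.76). GBE1, the glycogen branching enzyme, lay between NDRG1 and PLOD1 at -0.72 ± 0.20 (limma, adjusted p = 0.0176), a call that ended without untreated pool 3 (-0.63, adjusted p = 0.0592) and with library totals (-0.50, adjusted p = 0.0601). The next target above FAM162A was the enolase gene ENO1 at -0.57 ± 0.18 (limma, adjusted p = 0.0199), whose call ended without hypoxic pool 2 (-0.54, adjusted p = 0.0798) or 3 (-0.50, adjusted p = 0.0702) and with library totals (-0.36, adjusted p = 0.165). Over the settings run, the adjusted p ran from 0.00637 to 0.0623 for RORA, 0.0026 to 0.0601 for GBE1 and 3.65e-04 to 0.165 for ENO1. Without untreated pool 2 or 3 the list had 4 members lower.

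At the other end, PGF, a relative of VEGF, rose to 605, 545 and 464 at 8 h, against 7, 1 and 7 in untreated pools (6.73 ± 0.51, limma, adjusted p = 1.11e-05). STC1, a secreted glycoprotein hormone, stood at 59, 116 and 88 at 8 h, against 1, 2 and 0 in untreated pools (limma, adjusted p = 1.02e-05), too few untreated reads for a fold. LOX, which cross-links the lysines and hydroxylysines of collagen, rose to 180, 207 and 252 at 8 h, against 9, 3 and 9 in untreated pools (4.85 ± 0.37, limma, adjusted p = 1.33e-06). PGF and LOX also had few untreated reads, so their log2 differences depend on the pseudocount. Over the settings run they ranged from 5.42 to 7.07 for PGF and from 3.9 to 5.07 for LOX. STC2 rose by 3.93 ± 0.11 on the log2 scale.

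**Figure D3:**
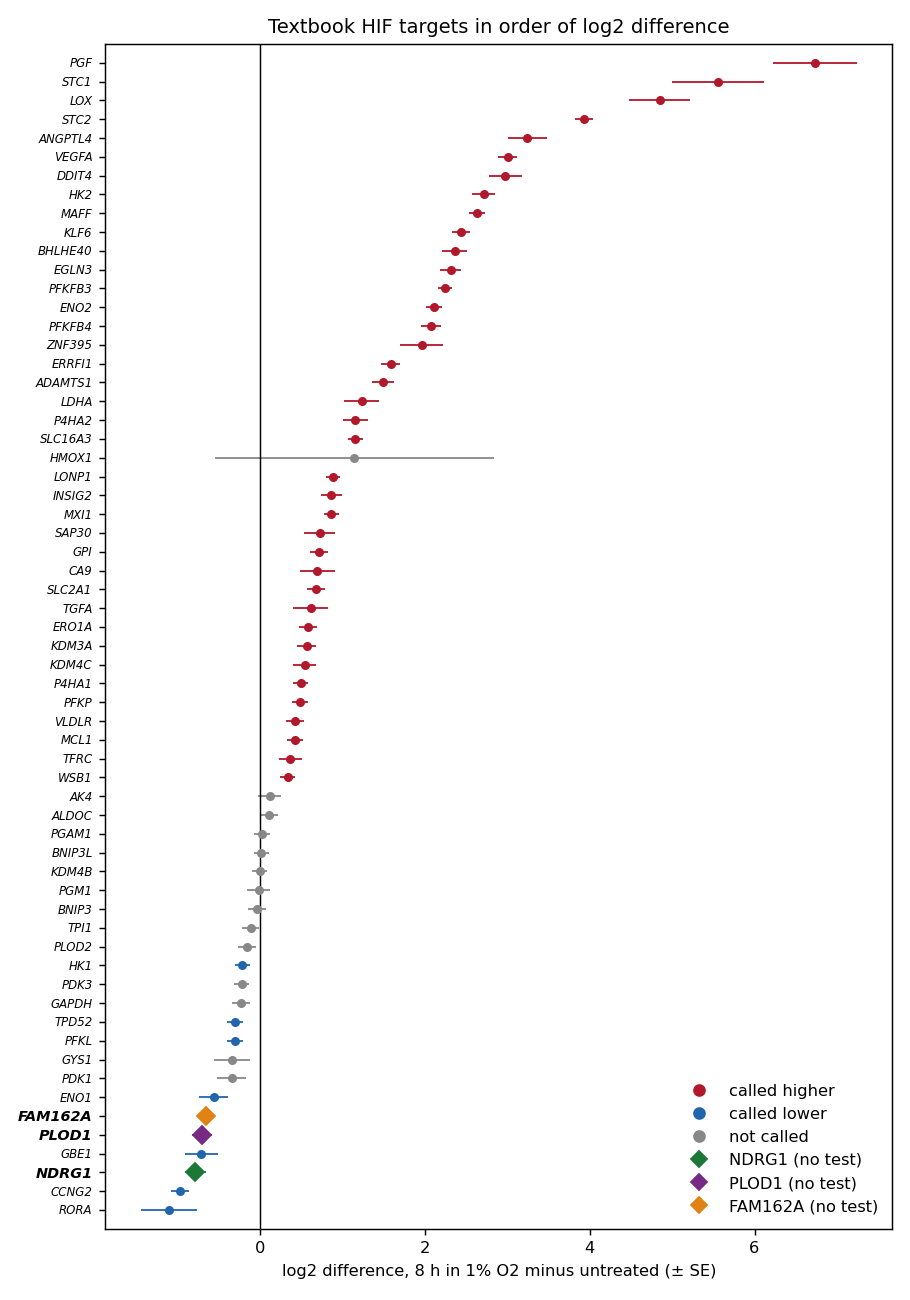
Textbook HIF targets with a row, ordered by log2 difference (horizontal axis, 8 h in 1% O2 minus untreated, bars are ± SE), with PGF at the top and RORA at the bottom. Red points were called higher, blue points lower and grey points neither, and the diamonds are NDRG1, PLOD1 and FAM162A, at places 3, 5 and 6 from the lowest of 62. STC1 has almost no untreated reads, and PGF and LOX have few, so these points depend on the pseudocount.

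The targets were also counted in lists by broad role, with no test between the lists. Of the 5 other targets on the collagen and matrix list, which held PLOD1, 4 (80.0%) rose, 0 fell and 1, PLOD2, did not pass. Shares over all rows were 29.4% higher and 25.7% lower. P4HA1 and P4HA2, prolyl hydroxylase subunits that let collagen helices form, rose by 0.49 ± 0.09 and 1.15 ± 0.15 on the log2 scale. P4HA2 stood at 258, 214 and 232 at 8 h, against 90, 113 and 113 in untreated pools (limma, adjusted p = 8.57e-05). ADAMTS1, a secreted protease, rose by 1.49 ± 0.13.

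Of the 7 other targets on the mitochondrial list, which held FAM162A, 2 (28.6%) rose, 0 fell and 5 did not pass. The share of rises was near the 29.4% over all rows, of which 25.7% were called lower. LONP1, a protease of the mitochondrial matrix, rose to 944, 1048 and 908 at 8 h, against 540, 514 and 523 in untreated pools (0.88 ± 0.09, limma, adjusted p = 1.70e-05). MXI1, a MYC antagonist, rose by 0.86 ± 0.09 (limma, adjusted p = 1.82e-05). The mitophagy receptor gene BNIP3, given after its values were seen, stood at 1767, 1836 and 2354 at 8 h and 1906, 2003 and 2154 in untreated pools (-0.04 ± 0.11, limma, adjusted p = 0.809).

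NDRG1 was placed on a mixed list of targets in signalling, stress and growth, whose genes do not all share its role. Of the 28 other targets there, 23 (82.1%) rose, 3 (10.7%) fell and 2 did not pass. Their median was 0.79, and shares over all rows were 29.4% higher and 25.7% lower. The lower ones were RORA, CCNG2 and TPD52. TPD52 had a log2 difference of -0.31 ± 0.10 (limma, adjusted p = 0.0210), and its call ended with library totals (-0.089, adjusted p = 0.445) and without hypoxic pool 1 (-0.25), untreated pool 2 (-0.27) or untreated pool 3 (-0.28), with adjusted p from 0.0127 to 0.445 over the settings run. Of the 19 glucose targets 9 (47.4%) rose, 4 (21.1%) fell and 6 did not pass, with a median of 0.10. The lower ones were GBE1, ENO1, PFKL and HK1. With library totals 10 rose and 0 fell, where 40.1% of all rows were called higher and 10.7% lower. PFKL had a log2 difference of -0.31 ± 0.10 (limma, adjusted p = 0.0162, 0.00864 to 0.400 over the settings run) and no call without untreated pool 3 (-0.25). HK1 had -0.22 ± 0.09 (limma, adjusted p = 0.0458, 0.0303 to 0.965 over the settings run), and when 1 library was left out it kept its call only without hypoxic pool 1, with values from -0.25 to -0.19 where the call ended. HK2 and PFKFB3 led the rises at 2.71 ± 0.14 and 2.24 ± 0.09 on the log2 scale.

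Of 13 HIF subunits, cofactors and oxygen sensors with a row, 5 (38.5%) rose, 4 (30.8%) fell and 4 did not pass, shares near the 29.4% higher and 25.7% lower over all rows, with a median log2 difference of -0.11. With library totals 5 rose and 3 fell, where 40.1% of all rows were called higher and 10.7% lower, and the median was 0.11. HIF1A, the alpha subunit of HIF-1, fell to 3424, 3915 and 3210 at 8 h, against 7106, 6135 and 4972 in untreated pools (-0.78 ± 0.13, limma, adjusted p = 6.28e-04). EPAS1, the alpha subunit of HIF-2, rose to 113, 174 and 156 at 8 h, against 19, 25 and 27 in untreated pools (2.58 ± 0.25, limma, adjusted p = 7.71e-06). HIF3A rose by 1.06 ± 0.16 (limma, adjusted p = 3.61e-04) and EGLN3 by 2.31 ± 0.13 on the log2 scale, and the coactivator gene EP300 rose by 0.56 ± 0.12.

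ARNT stood at 1298, 1231 and 1202 at 8 h and 1391, 1304 and 1319 in untreated pools (-0.11 ± 0.08, limma, adjusted p = 0.303), and HIF1AN, an asparagine hydroxylase that blunts HIF, had a log2 difference of -0.18 ± 0.10 (limma, adjusted p = 0.136). Both were above 0 with library totals. HSP90AA1, a chaperone of HIF-1 alpha, fell by 1.42 ± 0.10 on the log2 scale, and RBX1, a subunit of the VHL ligase, fell by 0.62 ± 0.11. ARNT2 had a log2 difference of -0.57 ± 0.17 (limma, adjusted p = 0.0168), a call that ended without untreated pool 1 (-0.53, adjusted p = 0.0577) and with library totals (-0.35), with adjusted p from 0.00291 to 0.154 over the settings run. EGLN1, EGLN2 and VHL are not analysed here.

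The list around NDRG1 held MYC family genes, SGK and GSK3 kinases and cadherins. Of 16 with a row, 8 (50.0%) rose, 2 (12.5%) fell and 6 did not pass, where 29.4% of all rows were called higher and 25.7% lower, and the median log2 difference was 0.34. With library totals, where 40.1% of all rows were called higher and 10.7% lower, 10 rose, 0 fell and the median was 0.55. MYC rose to 596, 641 and 847 at 8 h, against 184, 192 and 185 in untreated pools (1.87 ± 0.13, limma, adjusted p = 7.67e-07). MYCL rose by 1.88 ± 0.26 and MNT, a MYC antagonist, by 1.96 ± 0.13 on the log2 scale. SGK1 rose to 54, 67 and 62 at 8 h, against 19, 13 and 12 in untreated pools (2.01 ± 0.32, limma, adjusted p = 3.01e-04).

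MYCN, which gave NDRG1 its name, stood at 547, 450 and 411 at 8 h and 721, 555 and 567 in untreated pools (-0.39 ± 0.14, limma, adjusted p = 0.0309). Its call ended without hypoxic pool 2 (-0.36) or 3 (-0.30), without untreated pool 1 (-0.27) and with library totals (-0.17), with adjusted p from 0.00535 to 0.384 over the settings run. The tetraspanin gene CD82 had a log2 difference of -0.56 ± 0.16 (limma, adjusted p = 0.0127), and its call ended without hypoxic pool 2 (-0.52) or untreated pool 3 (-0.49) and with library totals (-0.34), with adjusted p from 2.96e-04 to 0.0649. Without hypoxic pool 2 none of the list was lower, and without hypoxic pool 3, untreated pool 1 or untreated pool 3 the lower count was 1.

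Of 24 genes of collagen modification and maturation other than PLOD1, 8 (33.3%) rose, 3 (12.5%) fell and 13 did not pass, where 29.4% of all rows were called higher and 25.7% lower, and the median log2 difference was 0.03. With library totals 9 rose and 0 fell, where 40.1% of all rows were called higher and 10.7% lower, and the median was 0.24. COLGALT2, a galactosyltransferase that acts on the hydroxylysines made by PLOD enzymes, rose to 1341, 1298 and 1188 at 8 h, against 749, 759 and 691 in untreated pools (0.80 ± 0.09, limma, adjusted p = 2.77e-05). SERPINH1, the collagen chaperone HSP47, rose to 10517, 10483 and 7827 at 8 h, against 7257, 5951 and 5526 in untreated pools (0.62 ± 0.14, limma, adjusted p = 0.00361). LOX and P4HA2, given above, were the list's other leading rises.

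The 3 that fell were FKBP10, P3H1 and FKBP14. FKBP10, a prolyl isomerase of the endoplasmic reticulum that in mammals supports lysyl hydroxylation, fell to 750, 792 and 775 at 8 h, against 1178, 935 and 1120 in untreated pools (-0.47 ± 0.10, limma, adjusted p = 0.00247). With library totals its call ended (-0.26, adjusted p = 0.0817, the highest over the settings run, where the lowest was 0.00143). P3H1, a prolyl 3-hydroxylase, had a log2 difference of -0.42 ± 0.12 (limma, adjusted p = 0.0133, 0.008 to 0.236 over the settings run), with no call without untreated pool 1 (-0.35) or with library totals (-0.20). FKBP14 had -0.34 ± 0.13 (limma, adjusted p = 0.0388, 0.0329 to 0.489 over the settings run), and of the 6 libraries it kept its call only without hypoxic pool 1. Without untreated pool 1 the list had 1 gene lower.

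Of 12 collagen chain genes with a row, 2 (16.7%) rose and 5 (41.7%) fell, with a median of -0.27. Over all rows 29.4% were called higher and 25.7% lower. With library totals 4 rose and 4 fell, with a median of -0.05, where 40.1% of all rows were called higher and 10.7% lower. COL9A2, a chain of collagen IX, fell by 2.75 ± 0.37 on the log2 scale, and COL9A3, another, fell by 2.99 ± 0.43. COL9A2 stood at 22, 33 and 14 at 8 h and COL9A3 at 7, 9 and 5, so their log2 differences depend on the pseudocount. Over the settings run they ranged from -3.04 to -2.4 for COL9A2 and from -3.28 to -2.23 for COL9A3. COL9A1, of the same collagen, stood at 0, 8 and 3 at 8 h, against 71, 188 and 77 in untreated pools. COL3A1, also on the list of mesenchymal markers, rose by 1.13 ± 0.19. The other rise was COL12A1, at 237, 174 and 161 at 8 h, against 5, 2 and 0 in untreated pools. COL9A1 and COL12A1 each had almost no reads in 1 group, so no fold is given.

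Of 22 genes of mitochondrial apoptosis and permeability other than FAM162A, 5 (22.7%) rose, 6 (27.3%) fell and 11 did not pass, shares near the 29.4% higher and 25.7% lower over all rows, and the median log2 difference was -0.07. With library totals 6 rose and 3 fell, where 40.1% of all rows were called higher and 10.7% lower, and the median was 0.15. Without untreated pool 3 the lower count was 3. APAF1, the scaffold of the apoptosome, rose by 1.00 ± 0.20 and PPIF, the cyclophilin of the permeability transition, by 0.67 ± 0.18 on the log2 scale. BCL2L1, a survival factor, rose by 0.54 ± 0.10.

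SLC25A4, an ATP/ADP carrier of the inner membrane, fell to 285, 306 and 299 at 8 h, against 528, 488 and 422 in untreated pools (-0.68 ± 0.11, limma, adjusted p = 4.36e-04). AIFM1, a flavoprotein of the intermembrane space, fell to 1186, 1101 and 1258 at 8 h, against 1646, 1767 and 1828 in untreated pools (-0.56 ± 0.09, limma, adjusted p = 3.36e-04), and the mitochondrial nuclease gene ENDOG fell by 0.54 ± 0.11 on the log2 scale. BID, a death agonist, had a log2 difference of -0.79 ± 0.27 (limma, adjusted p = 0.0297), which lost its call without hypoxic pool 1 (-0.66) or 2 (-0.71), without untreated pool 1 (-0.66) or 3 (-0.78) and with library totals (-0.58), with adjusted p from 0.0149 to 0.110 over the settings run. VDAC2, a channel of the outer membrane, was outside the named set and is given after its values were seen, at 6783, 5936 and 5898 at 8 h and 7067, 7769 and 7648 in untreated pools (-0.27 ± 0.09, limma, adjusted p = 0.0286), with no call under library totals (-0.06, adjusted p = 0.617).

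**Figure D4:**
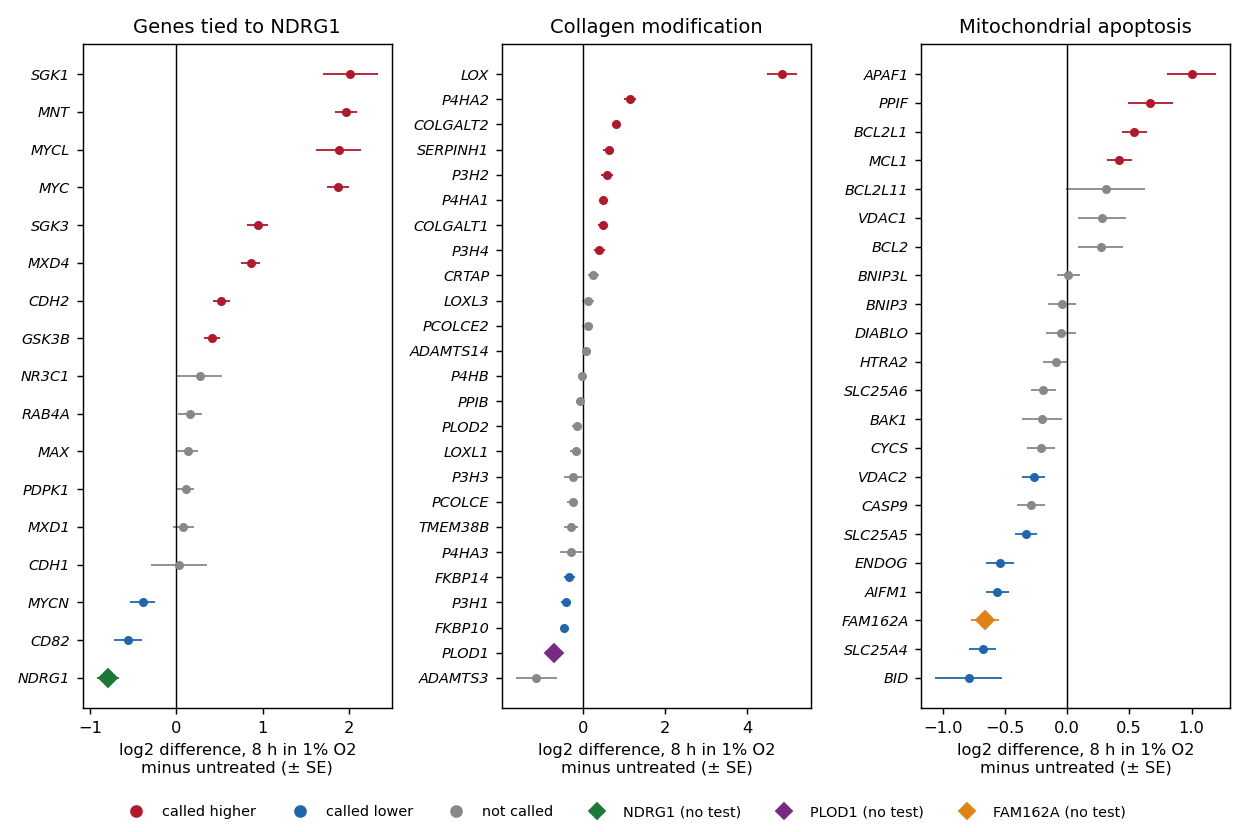
Log2 difference (horizontal axes, 8 h in 1% O2 minus untreated, bars are ± SE) of the genes listed around NDRG1, PLOD1 and FAM162A, each list in order with the member as a diamond and 1 gene of the mitochondrial list not drawn. Red points were called higher, blue points lower and grey points neither. NDRG1 lies at the low end of its panel, PLOD1 is second to ADAMTS3, which did not pass, and FAM162A lies above SLC25A4 and BID.

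The rows with the closest pattern over the 6 libraries were found by the root mean square distance between log2(value + 1) profiles, each centred on its own mean. For NDRG1 they were AKR1E2 (distance 0.0563 on the log2 scale), SLC35E2B (0.0719), SLC46A1 (0.0744), EML6 (0.0749) and LRRN1 (0.0772). AKR1E2, an aldo-keto reductase gene, stood at 234, 267 and 313 at 8 h, against 415, 525 and 492 in untreated pools. A row chosen for likeness to a member is lower at 8 h by that choice, so no test of these rows is given.

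For PLOD1 the closest rows were TUBB1 (0.0306), COA8 (0.0460), NDUFA4 (0.0510), SMAP1 (0.0614) and SEC61G (0.0626). NDUFA4, a subunit of cytochrome c oxidase, stood at 1695, 1310 and 1296 at 8 h, against 2292, 2247 and 2176 in untreated pools, with hypoxic pool 1 highest as for PLOD1. For FAM162A they were CMC4 (0.0282), ATG3 (0.0368), GDPD5 (0.0411), FN3KRP (0.0476) and ATPAF1 (0.0515). ATG3, a conjugating enzyme of autophagy, stood at 1979, 1983 and 2537 at 8 h, against 3095, 3308 and 3844 in untreated pools, with hypoxic pool 3 highest as for FAM162A. No row came up for more than 1 member. Among 9104 other rows FAM162A was number 36 in closeness to NDRG1 (distance 0.125) and PLOD1 was number 1173 (0.269). In the other direction NDRG1 was number 141 in closeness to FAM162A and number 1741 in closeness to PLOD1. PLOD1 and FAM162A were 0.260 apart, with FAM162A number 1588 from PLOD1 and PLOD1 number 1973 from FAM162A. A difference between groups that 2 rows share cancels in this distance. Between the members, whose differences between groups were of similar size, the distances mostly express deviations of single pools from their group means.

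**Figure D5:**
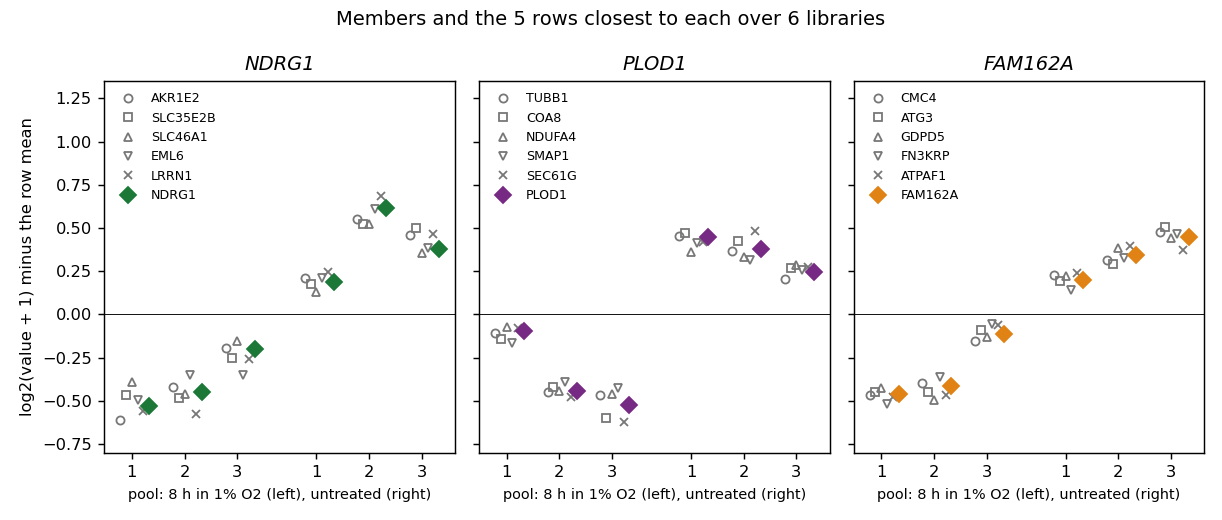
Centred log2 profiles (vertical axis, log2(value + 1) minus the row's own mean) of NDRG1, PLOD1 and FAM162A (diamonds) and of the 5 closest rows to each (grey symbols) in the 3 pools at 8 h in 1% O2, on the left of each panel, and the 3 untreated pools, on the right. Hypoxic pool 3 is the highest hypoxic pool for NDRG1 and FAM162A, and hypoxic pool 1 for PLOD1.

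Genes next to the members in the RefSeq annotation of assembly GRCg7b were taken by position as the 3 protein-coding genes on each side. Of these 18 neighbours 8 had a row, among them neither gene directly beside NDRG1, and 0 of the 8 were called lower (limma, 0 also at an unadjusted p under 0.05) and 1 higher, where 25.7% of all rows were lower. NDRG1 is on chromosome 2, and its neighbours ZFAT and KHDRBS3 had log2 differences of 0.30 ± 0.19 (limma, adjusted p = 0.212) and -0.03 ± 0.12 (adjusted p = 0.862). PLOD1 is on chromosome 21 beside MFN2, a mitochondrial fusion gene, at -0.14 ± 0.11 (limma, adjusted p = 0.321), and KIAA2013 at -0.17 ± 0.09 (adjusted p = 0.116), with MIIP further out at -0.03 ± 0.19. FAM162A is on chromosome 1 between CCDC58, at 258, 245 and 260 at 8 h and 256, 281 and 270 in untreated pools (-0.08 ± 0.11, limma, adjusted p = 0.561), and KPNA1 (-0.22 ± 0.14, adjusted p = 0.195). CSTB, an inhibitor of cathepsins and the third gene from FAM162A, rose to 945, 789 and 938 at 8 h, against 461, 518 and 626 in untreated pools (0.74 ± 0.12, limma, adjusted p = 4.89e-04).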

How the data were processed

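Values were read from 1 deposited table of 9107 gene rows with 6 library columns. By the file headers it also held the authors' log2 fold changes (shrunken) and adjusted p-values. Each library value is a score: a read number scaled by a size factor and rounded by the authors, as worked out from the values. The submitters' processing notes name galGal6 and, among other tools, STAR and DESeq2, without roles. For the counting program, annotation and strand setting, nothing is given in the sources used here. Whether overlapping genes or paralogues, such as NDRG1 and NDRG3, shared reads could therefore not be checked. METTL16, with 1 value that was not whole, was left out, and 12 symbols on several rows were not used. Columns of unknown samples numbered 0. Reads per library (23.5 M to 32.6 M) were recovered from the steps that the size factors leave in low values, and intervals from them cover counting error only.

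A count model had been foreseen for raw counts. Because the table held scaled scores, log2(value + 1) was fitted on the group in limma 3.58.1 (R 4.3.3), with a mean-variance trend and robust moderation, on 9105 rows with a mean of at least 1, and p-values were adjusted by Benjamini-Hochberg over these rows. Fold changes on this scale understate those of low genes. On simulated data for 8 h against 0 h (9088 genes, 50 changed at each size), the share recovered was 70.0% at 1.5-fold, 96.0% at 2-fold and 100.0% at 4-fold. Of the 190 calls made there, 7 fell on unchanged rows. These shares hold for that setting, with few changed rows. There, every row had the same assumed spread beyond counting error, which was not fitted to the measured pools. Recovery in the measured libraries, where 55.1% of rows were called, was not tested. Named were the members, their family rows, HIF pathway genes, up to 4 called rises and 4 called falls per list and the 5 closest rows per member. The members and gene lists were chosen with earlier results of these data known. List counts leave the members out, and 1 gene of the mitochondrial list is counted but not reported here. Alternatives were library totals, the trimmed mean of M-values, recomputed median-ratio factors, totals without crystallins, pseudocounts of 0.5 and 8, no filter, a mean of at least 50, no trend and no robust moderation, a replicate block and each library left out. Files used here hold no sequence of the members.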

Additional observations from a re-analysis of the deposited data

How the results depend on the processing

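Library totals moved the log2 differences of NDRG1, PLOD1 and FAM162A to -0.57, -0.49 and -0.44. This shift was as large as that of the median of all rows, which follows from scaling each library by 1 factor. Each other setting left the members within 1 SD of the replicates. Leaving out 1 library gave -0.89 to -0.68, -0.84 to -0.63 and -0.77 to -0.59 in the same order. Numbers of called genes stayed within 1.5 times of the main ones under the settings run: 4061 to 5313 over all rows (main 5017), 39 to 48 for HIF targets, 9 to 12 for collagen processing, 8 to 12 for mitochondrial apoptosis, 8 to 10 for genes tied to NDRG1 and 8 to 10 for the HIF pathway. The split moved more: over all rows library totals called 3647 higher and 976 lower, against 2681 and 2336. With library totals the medians of the mitochondrial and HIF pathway lists were 0.15 and 0.11, and the log2 differences of NDRG4, PLOD2, ARNT and HIF1AN were 0.086, 0.061, 0.11 and 0.037, each on the other side of 0. Totals without crystallins gave 0.02 for the mitochondrial median. The collagen processing median of 0.03 ranged from -0.04 to 0.08 when 1 library was left out. Same-numbered pools had correlations of deviations of 0.123, 0.11 and 0.0191. Hypoxic pools 1 and 2 correlated best with their own number, and hypoxic pool 3 with untreated pool 2 (0.0653). Whether same-numbered pools were paired is not settled by these values. The replicate block called 5313 genes and left the members at -0.79, -0.71 and -0.66. Their SE was then 0.101, 0.096 and 0.083, against 0.125, 0.12 and 0.112 without the block. Few rows have low counts (48 with a mean under 20), so silent genes are outside the test.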

Other observations

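HMOX1, a heme oxygenase gene on the list of HIF targets, stood at 18, 24 and 788 normalized counts in hypoxic pools 1, 2 and 3, against 57, 45 and 12 in untreated pools, and did not pass (limma, adjusted p = 0.601). Hypoxic pool 3, where it was high, was also the hypoxic pool with the highest NDRG1 and FAM162A values and the lowest PLOD1 value. HMOX1 was picked out after its values were seen, and no relation between these values was tested.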
